A study of Homo sapiens with 6 samples.

Results

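ETS family genes encode transcription factors that share a winged helix DNA-binding domain and read a GGAA core. Many of them are end points of growth factor signalling through the RAS and ERK kinases, and in squamous epithelium members of the ESE subfamily are associated with differentiation. The present data describe open chromatin at 10 of these genes, ETV1, ETV4, ETV5, ETS1, ETS2, ELF3, EHF, ELK3, FLI1 and ERG, out of 28 ETS genes and 20136 protein-coding genes of the annotation. Chromatin was read by ATAC-seq, in which the Tn5 transposase cuts accessible DNA, in 3 esophageal cell lines with 2 libraries each. HET-1A (libraries 1 and 2) is a non-cancerous epithelial line cultured in BEBM medium with its additives. KYSE-30 (libraries 4 and 6) and KYSE-150 (libraries 7 and 8) are esophageal squamous cell carcinoma (ESCC) lines cultured in RPMI/F12 with 5% serum. None of the libraries carries a labelled treatment. Each condition is 1 cell line, and the medium differed between HET-1A and both ESCC lines, so line and medium cannot be told apart there.

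A peak was assigned to a gene when it shared at least 1 bp with the gene body extended by 50 kb to each side, and it was called a promoter peak when it came within 3 kb of an annotated transcription start site. The authors called peaks in each library alone, at a q-value of 0.05, and the fold enrichment they list divides the sequenced tags at a summit by the tags expected from the surrounding background in that library, after adding 1 to each number. The 10 genes were chosen from the presence and fold enrichment of these same called peaks, so the values below describe them and no test was run on them. With 2 libraries per line, the smallest two-sided p that an exact permutation test of 2 lines allows is 0.33. Together the windows held 37 peaks of the 29879 listed, in 29 merged regions of 23972.

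The lists differ widely in length. HET-1A library 1 lists 168 peaks and library 2 lists 15979. For KYSE-150 these numbers were 547 (library 7) and 259 (library 8), and for KYSE-30 they were 1255 (library 4) and 11671 (library 6). None of the 10 windows held a peak of HET-1A library 1 or of KYSE-150. All protein-coding genes set the scale for this, since a window peak was found at 0.978% of them in HET-1A library 1 and at 5.77% and 2.0% in libraries 7 and 8 of KYSE-150. With such shares a count of 0 among 10 genes is near the background. In bulk libraries, a site open in few cells and a site weakly open in all cells cannot be told apart. Of the squamous epithelial genes TP63, KRT5, KRT14, KRT6A, DSG3 and CDH1, all 6 had a window peak in HET-1A library 2, where 68.6% of all genes had one. KYSE-30 library 4 had one at TP63 and CDH1 (all genes 12.4%), and library 6 at TP63 (all genes 60.8%), with a promoter peak only at KRT6A in HET-1A library 2. Of the blood and endothelial genes PTPRC, SPI1 and CDH5, none had a promoter peak, SPI1 had a window peak in HET-1A library 2 and KYSE-30 library 6, and CDH5 in HET-1A library 2.

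The sequences below carry the main observations, each with the 201 bases around a summit on the forward strand of hg19. The first set holds 4 of the 8 regions with a peak in more than 1 library, chosen for the highest fold enrichment or for a peak in both KYSE-30 libraries. These are ETV1 intron 9 (chr7:13959879-13960079), ELK3 intron 1 at 25.5 kb from the start site (chr12:96613584-96613784), the region downstream of EHF (chr11:34706889-34707089) and the ETV5 promoter (chr3:185827032-185827232), all at the summits of KYSE-30 library 6. The second set shows distal peaks of the same library that hold the core of the AP-1 motif. They lie downstream of ETV1 (chr7:13919688-13919888), downstream of ETS1 (chr11:128318501-128318701), upstream of ETS2 (chr21:40170516-40170716) and in ELK3 intron 1 at 4.72 kb (chr12:96592773-96592973). Capitals mark the AP-1 core, TGACTCA or its reverse complement TGAGTCA, and the ETS form CAGGAAG.
ETV1 intron 9: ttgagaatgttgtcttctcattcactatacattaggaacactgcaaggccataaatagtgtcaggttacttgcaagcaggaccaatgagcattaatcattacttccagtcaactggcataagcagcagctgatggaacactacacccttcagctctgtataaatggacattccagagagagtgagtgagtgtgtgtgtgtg
ELK3 intron 1 at 25.5 kb: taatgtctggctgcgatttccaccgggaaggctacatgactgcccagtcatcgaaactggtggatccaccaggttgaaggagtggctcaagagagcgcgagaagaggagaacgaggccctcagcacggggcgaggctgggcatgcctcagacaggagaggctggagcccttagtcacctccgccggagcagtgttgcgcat
EHF downstream: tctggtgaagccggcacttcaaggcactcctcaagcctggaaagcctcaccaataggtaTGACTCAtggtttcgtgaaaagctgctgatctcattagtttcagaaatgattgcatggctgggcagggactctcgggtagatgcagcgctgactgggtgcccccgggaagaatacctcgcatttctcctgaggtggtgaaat
ETV5 promoter: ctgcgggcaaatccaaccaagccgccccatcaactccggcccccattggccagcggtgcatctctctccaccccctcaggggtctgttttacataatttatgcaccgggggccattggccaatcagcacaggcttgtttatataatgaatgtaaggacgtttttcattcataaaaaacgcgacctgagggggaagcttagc
ETV1 downstream: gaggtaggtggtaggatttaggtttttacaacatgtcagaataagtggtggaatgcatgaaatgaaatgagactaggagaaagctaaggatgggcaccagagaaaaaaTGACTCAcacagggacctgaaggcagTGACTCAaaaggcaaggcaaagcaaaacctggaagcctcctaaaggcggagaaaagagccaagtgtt
ETS1 downstream: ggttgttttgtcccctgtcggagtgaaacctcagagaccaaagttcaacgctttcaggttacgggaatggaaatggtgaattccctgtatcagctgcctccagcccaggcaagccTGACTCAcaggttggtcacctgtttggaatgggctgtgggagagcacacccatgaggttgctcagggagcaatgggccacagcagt
ETS2 upstream: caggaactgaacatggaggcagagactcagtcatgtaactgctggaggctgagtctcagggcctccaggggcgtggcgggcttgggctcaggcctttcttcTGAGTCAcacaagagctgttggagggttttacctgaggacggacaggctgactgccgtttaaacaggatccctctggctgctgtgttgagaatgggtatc
ELK3 intron 1 at 4.72 kb: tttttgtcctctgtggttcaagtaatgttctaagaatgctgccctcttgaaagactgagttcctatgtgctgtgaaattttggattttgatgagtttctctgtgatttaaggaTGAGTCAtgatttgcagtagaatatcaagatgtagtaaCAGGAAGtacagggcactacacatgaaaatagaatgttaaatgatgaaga

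**Figure D1:**
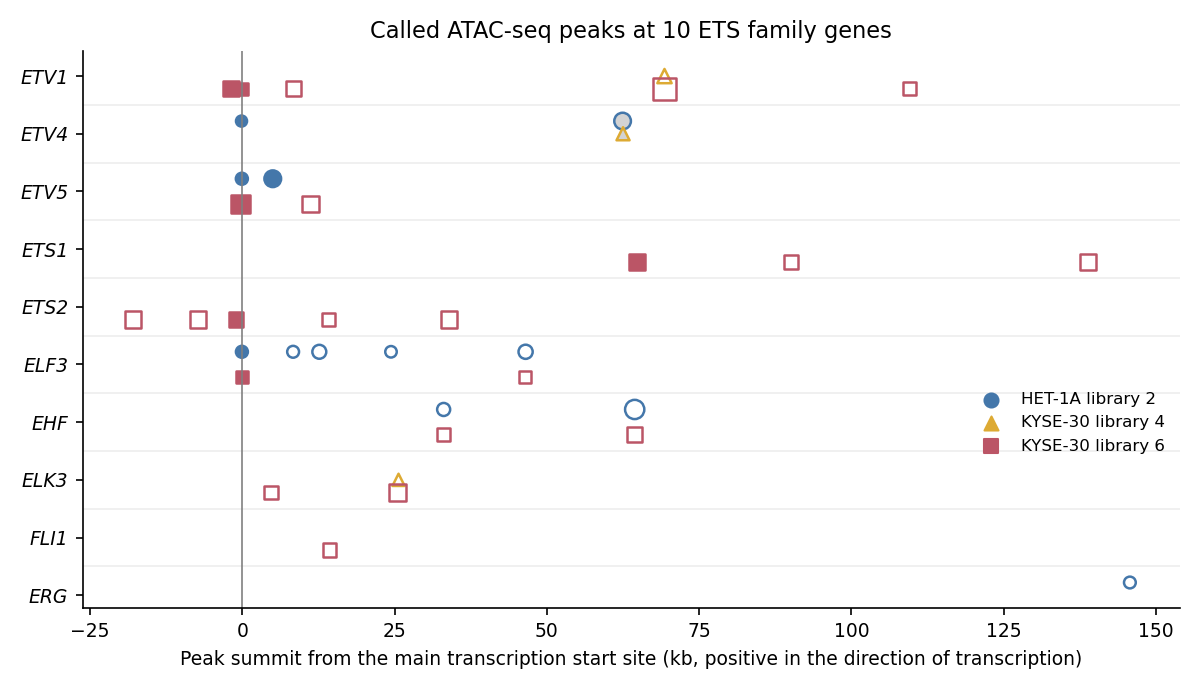
Each row is a gene, and the horizontal axis gives the distance in kb of a peak summit from the start site of the main transcript (MANE Select), positive in the direction of transcription. Symbols stand for libraries and their area for fold enrichment, with filled symbols at the gene's own promoters, open symbols for distal peaks and grey fill for peaks at the DHX8 promoter. Peaks of HET-1A library 2 and KYSE-30 library 6 lie at different genes or positions except at ETV5, ELF3 and EHF.

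ETV1, ETV4 and ETV5 form the PEA3 subfamily, whose proteins are transcriptional activators induced by receptor tyrosine kinase signalling. ETV1 (ENSG00000006468, chromosome 7 from 13930854 to 14031050, reverse strand) had peaks in KYSE-30 only. Its leading region lay in intron 9, 69.3 kb inside the gene, with a KYSE-30 library 6 peak from 13959664 to 13960234 and a library 4 peak from 13959862 to 13960280. The fold enrichment there was 12.8 in library 6, with 57 tags at the summit, and 5.21 in library 4, with 21 tags. These peaks ranked 19 of 11671 and 160 of 1255 by fold enrichment, at percentiles 99.8 and 87.3 of their lists. Neither HET-1A nor KYSE-150 had a peak in the region. Its printed sequence has no match to the searched motifs and runs into a repeat of GT pairs, which takes 12 bases around the library 6 summit and 22 bases around the library 4 summit, 9 bases further on.

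In KYSE-30 library 6, ETV1 had 4 further peaks. At the start site of the main transcript a peak from 14029247 to 14029653 had a fold enrichment of 3.76, in the lowest part of the list at percentile 3.20. A start site farther upstream carried a stronger peak, from 14030872 to 14031387, with a fold enrichment of 6.06 and 27 tags. Both are promoter peaks of ETV1, whose promoters had no listed peak in the other 5 libraries. The remaining peaks were distal, at 8.43 kb in intron 5 with a fold enrichment of 5.56 and at 109.5 kb, downstream of the gene, with a fold enrichment of 4.52.

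ETV4 (ENSG00000175832, chromosome 17 from 41605212 to 41656988, reverse strand) had a promoter peak in HET-1A library 2 only, from 41623748 to 41623947, which also lies within 3 kb of an annotated start site of DHX8, an RNA helicase gene. With a fold enrichment of 3.13 and 23 tags over a local background of 6.68 tags, it was at percentile 13.8 of its list. A site with the same ratio of tags to background would have 10 tags over a background of 2.97 in KYSE-30 library 6. Leaving counting error aside, that falls short of the weakest p-value listed there. The lack of a library 6 peak is therefore not informative. Such a site would have passed narrowly in KYSE-30 library 4, with 16 tags over 4.72. Its −log10 p would be 5.01 in library 4, against a weakest listed 4.90. All 22 peaks of KYSE-30 library 6 would also have passed there, yet only 2 regions had a peak in both. The lack of a library 4 peak at ETV4 is therefore not read as closed chromatin. The other region of the ETV4 window lay at another start site of DHX8, far from those of ETV4, and had a fold enrichment of 7.09 in HET-1A library 2 and 4.36 in KYSE-30 library 4. ETV4 itself thus had no listed peak in KYSE-30 apart from this neighbour.

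ETV5 (ENSG00000244405, chromosome 3 from 185764103 to 185828107, reverse strand) had a promoter peak in both long lists. The peak at its main start site reached from 185826863 to 185827208 in HET-1A library 2, where its fold enrichment was 3.70. In KYSE-30 library 6 it reached from 185826934 to 185827329, and its fold enrichment was 8.94. Within their lists these values were at percentiles 31.3 and 95.2, and the tags at the summit were 16 and 46. The local background was 1.08 times the genome background in HET-1A library 2 and 2.86 times in KYSE-30 library 6, the highest at any of the 37 peaks. The summits lay 86 and 254 bases before the start site. HET-1A library 2 had a second promoter peak, 4.99 kb inside the gene and 1214 bp from the nearest start site of a shorter transcript, with a fold enrichment of 7.14 at percentile 97.7. KYSE-30 library 6 had none there and instead a distal peak at 11.2 kb with a fold enrichment of 6.84. The stronger promoter peak of ETV5 was thus at the shorter transcript in HET-1A library 2 and at the main start site in KYSE-30 library 6.

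**Figure D2:**
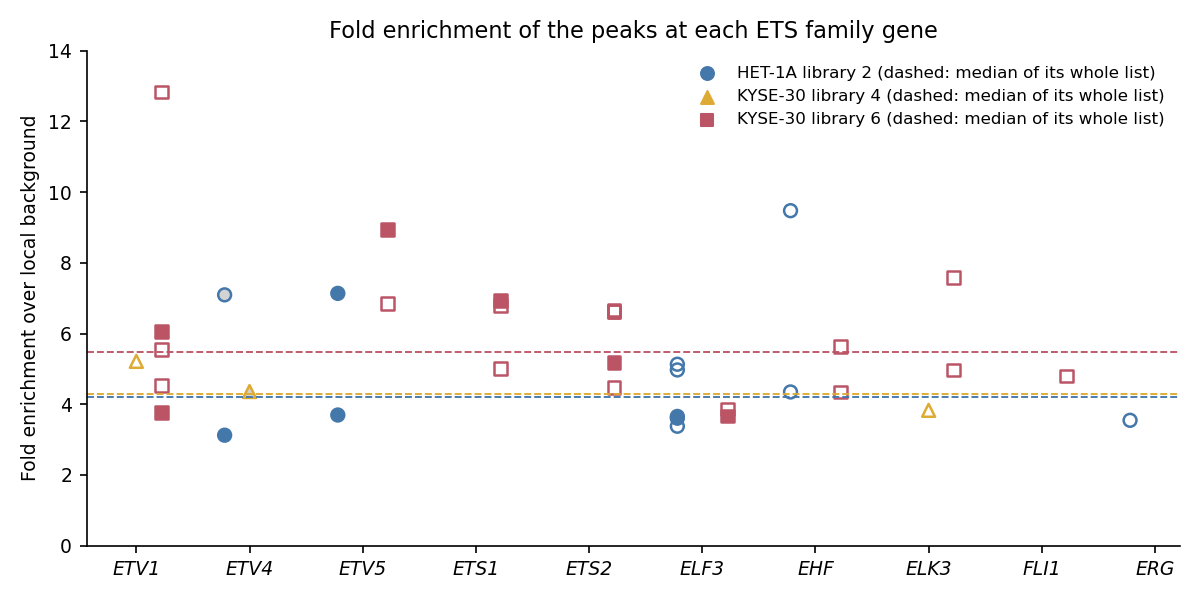
The vertical axis gives the fold enrichment of each peak over the local background of its own library, by gene, with symbols for libraries, filled at own promoters, open for distal peaks and grey at the DHX8 promoter. Dashed lines are the medians of the whole lists, 4.22 for HET-1A library 2, 4.29 for KYSE-30 library 4 and 5.47 for library 6. The peak in ETV1 intron 9 at 12.8 and the EHF peak of HET-1A library 2 at 9.48 stand highest.

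ETS1 and ETS2, the founding members of the family, encode activators that ERK phosphorylates. Both had peaks in KYSE-30 library 6 and in no other library. At ETS1 (ENSG00000134954, chromosome 11 from 128328656 to 128457453, reverse strand) none of the 3 peaks was at the start site of the main transcript. A promoter peak from 128392490 to 128392796 lay 64.8 kb inside the gene, 285 bp from the start site of a shorter transcript, with a fold enrichment of 6.93 and 22 tags. The distal peaks were in intron 3 at 90.0 kb with a fold enrichment of 5.00 and downstream at 138.9 kb with a fold enrichment of 6.80.

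ETS2 (ENSG00000157557, chromosome 21 from 40177107 to 40196879, forward strand) had 5 peaks on both sides of its start site. The promoter peak from 40176628 to 40177179 had a fold enrichment of 5.17 and 14 tags. Distal peaks lay 18.01 and 7.24 kb upstream of the main start site with fold enrichments of 6.67 and 6.63, in intron 8 with 4.48, and 33.9 kb beyond the start site with 6.62. The promoter of ETS2 was thus weaker than 3 of its 4 distal sites, and each of these 4 distal peaks held the AP-1 core.

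ELF3 and EHF belong to the ESE subfamily, whose expression is largely restricted to epithelia. They were the members with most in common between the long lists. ELF3 (ENSG00000163435, chromosome 1 from 201977073 to 201986311, forward strand) had a peak over its main start site with a fold enrichment of 3.66 in HET-1A library 2 and 3.67 in KYSE-30 library 6. This equal ratio was at percentile 29.1 of the HET-1A list and 2.46 of the KYSE-30 list, and antisense transcripts share the promoter. Downstream of ELF3, HET-1A library 2 had peaks at 8.33, 12.6, 24.4 and 46.5 kb, with fold enrichments of 3.61, 4.97, 3.38 and 5.13. The last of these was also a peak of KYSE-30 library 6, with a fold enrichment of 3.87 at percentile 4.50. The ELF3 window held the most peaks of any member in HET-1A, 5 of 12, while its KYSE-30 peaks were among the weakest listed. The start sites nearest to the peaks at 12.6, 24.4 and 46.5 kb are those of ENSG00000232296 or ENSG00000235811 and not that of ELF3.

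EHF (ENSG00000135373, chromosome 11 from 34642640 to 34684835, forward strand) had no promoter peak in any library. In intron 6 the fold enrichment was 4.35 in HET-1A library 2 and 4.35 in KYSE-30 library 6, with 33 and 11 tags. A region from 34706827 to 34707235, downstream of the gene and 64.4 kb from its start site, had a fold enrichment of 9.48 with 46 tags in HET-1A library 2, where it ranked 16 of 15979. In KYSE-30 library 6 the same region had 5.63 with 13 tags and ranked 5212 of 11671. Both libraries shared the position, but its place in the list was far higher in HET-1A library 2. The start site nearest to this region is that of ENSG00000271369 and not that of EHF.

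**Figure D3:**
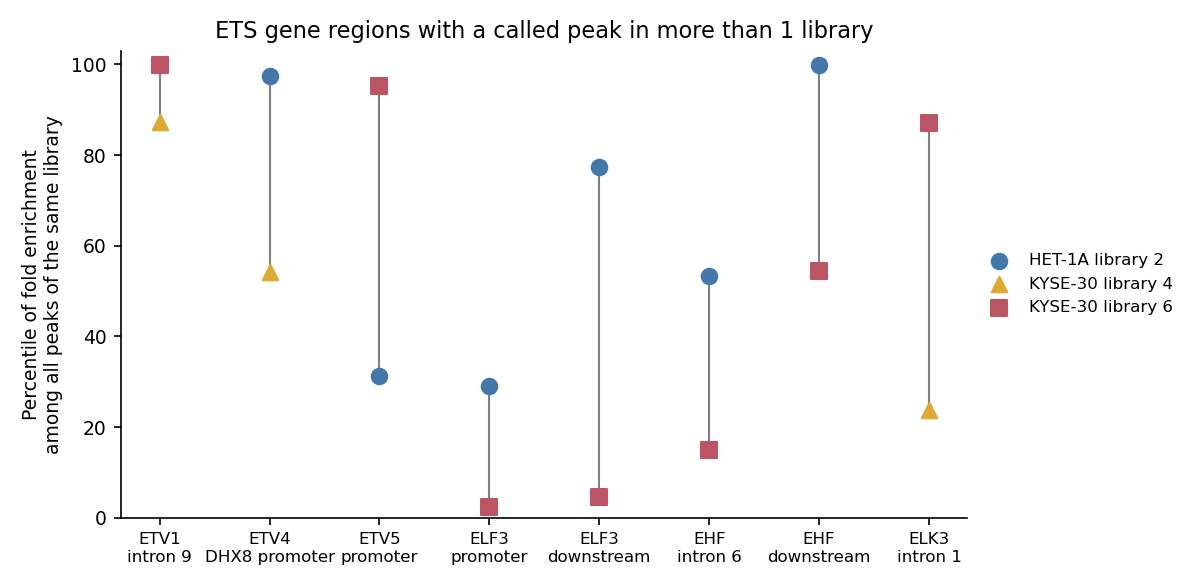
The 8 regions of the ETS genes with a peak in more than 1 library are placed along the horizontal axis, and the vertical axis gives the percentile of the peak's fold enrichment among all peaks of the same library. Lines join the libraries of a region, and percentiles depend on the length and depth of each list. KYSE-30 is higher than HET-1A at the ETV5 promoter only, at 95.2 against 31.3, and lower at the DHX8, ELF3 and EHF regions.

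ELK3 encodes a ternary complex factor, a partner of serum response factor that can repress its targets. The gene (ENSG00000111145, chromosome 12 from 96588153 to 96663602, forward strand) had no promoter peak, and both of its regions lay in intron 1. At 4.72 kb, KYSE-30 library 6 had a fold enrichment of 4.97 with 15 tags. At 25.5 kb, the fold enrichment was 7.58 with 26 tags in KYSE-30 library 6 and 3.83 with 16 tags in KYSE-30 library 4. The latter region was thus present in both KYSE-30 libraries, but it was a weak peak of library 4, at percentile 23.7 with a q-value of 0.00202. The start site nearest to this region is that of ENSG00000258177, 3961 bp from the library 4 summit, and not that of ELK3.

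FLI1 and ERG, known from endothelium, blood and fusion oncogenes of sarcoma, leukaemia and prostate cancer, had the fewest peaks. FLI1 (ENSG00000151702, chromosome 11 from 128556430 to 128683162, forward strand) had a single peak in KYSE-30 library 6, in intron 1 at 14.3 kb, with a fold enrichment of 4.80 and 11 tags. The only peak of ERG (ENSG00000157554, chromosome 21 from 39751949 to 40033704, reverse strand) was in HET-1A library 2, downstream of the gene, with a fold enrichment of 3.55 and 19 tags. The nearest start sites to these peaks were those of the non-coding genes SENCR and LINC01423, and neither FLI1 nor ERG had a promoter peak.

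Counted over the genes, promoters were open at ETV4, ETV5 and ELF3 in HET-1A library 2, 3 of 10 where 35.4% of all protein-coding genes had a promoter peak. In KYSE-30 library 6 they were open at ETV1, ETV5, ETS1, ETS2 and ELF3, 5 of 10 against 28.7% of all genes. No member had a promoter peak in the remaining libraries, where the shares of all genes were 3.88% for KYSE-30 library 4, 0.0944% for HET-1A library 1, 1.79% for KYSE-150 library 7 and 0.363% for library 8. Over all libraries 6 members had a promoter peak, against 46.4% of all genes. HET-1A library 2 had a window peak at 5 members, where 68.6% of all genes had one. KYSE-30 library 4 had one at 3 members (all genes 12.4%) and library 6 at 8 members (all genes 60.8%). All 10 members had a window peak in at least 1 library, as did 81.7% of all genes. Since the members were chosen on these peaks, nothing is read from their counts. Their windows were also longer, with a median of 169.7 kb against 127.2 kb for all genes.

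**Figure D4:**
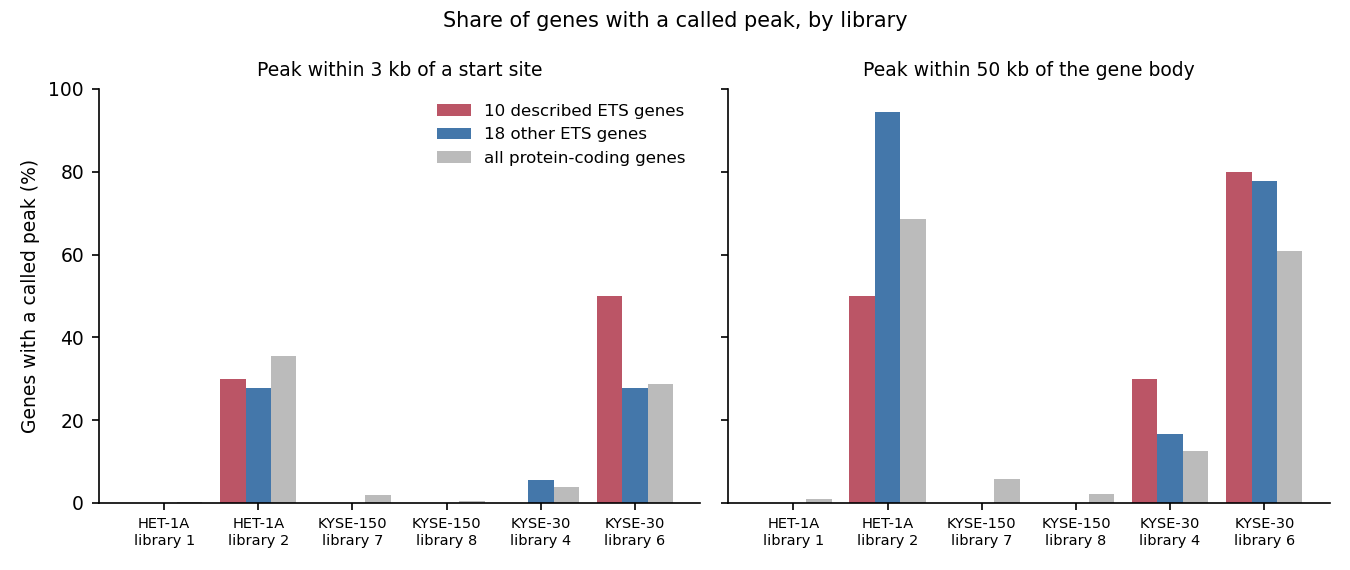
Bars give the percentage of genes with a called peak in each of the 6 libraries, within 3 kb of a start site on the left and within 50 kb of the gene body on the right, for the 10 genes described, the 18 other ETS genes and all 20136 protein-coding genes. In HET-1A library 2 the window peaks reached 5 of the 10 genes and 17 of the 18 other ETS genes, and libraries 1, 7 and 8 had no peak at any ETS gene.

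Per Mb of window, HET-1A library 2 had 6.32 peaks at the members and 7.27 over the windows of all genes. For KYSE-30 the corresponding values were 1.58 and 0.554 (library 4) and 11.6 and 5.20 (library 6). These densities rest on 12, 3 and 22 peaks that the choice of the genes used, and no direction is read from them. Of the 29 regions, 17 had a peak in KYSE-30 only (58.6%), 6 in HET-1A only (20.7%) and 6 in both lines (20.7%). Over all 23972 regions these shares were 31.2%, 47.2% and 18.6%. The counts rest on single libraries, since without KYSE-30 library 6 the regions of KYSE-30 only fell to 2 and those of HET-1A only were 11, and without HET-1A library 2 the regions of HET-1A only fell to 0. A peak in both KYSE-30 libraries was found in 2 regions, ETV1 intron 9 and ELK3 intron 1, and neither had a peak in another line. Of all merged regions, 2.91% had a peak in both KYSE-30 libraries, and 0.726% had one in both and in no other library.

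The tags behind these peaks bear on how the libraries compare. The genome background, the lowest local background of a library, was 3.34 tags for HET-1A library 2, 2.36 for KYSE-30 library 4 and 1.49 for library 6, and it was 1.88 for HET-1A library 1, 2.80 for KYSE-150 library 7 and 2.64 for library 8. The length of a list did not follow this measure of depth, since KYSE-30 library 6 had the lowest value and the second longest list. Each member peak was rescaled to the genome background of the other libraries, keeping its ratio of tags to local background, and set against the weakest p-value listed there, leaving counting error aside. By this rule, all 22 peaks of KYSE-30 library 6 would have passed in HET-1A library 2 and also in the other 4 libraries. Yet only 2 regions had a peak in both KYSE-30 libraries. Likewise, 8 of the 12 peaks of HET-1A library 2 would have passed in library 1, which had 0 peaks in these windows. The rule thus failed between libraries of 1 line, so a missing peak is not read from it as closed chromatin. Of the 12 peaks of HET-1A library 2, 8 would have passed in KYSE-30 library 6, and those at the ETV4 promoter, the ETV5 main start site, ELF3 at 24.4 kb and ERG would not. The peak at the ETV5 start site in KYSE-30 library 6 was thus stronger than this HET-1A ratio. The lack of a KYSE-30 library 6 peak at ETV4 and ERG and at this ELF3 site was not informative. At the sites that would have passed, a missing peak is not shown to be informative either. The local background at the 37 peaks was between 1.00 and 2.86 times the genome background, and the medians over the whole lists were 1.45, 1.42 and 1.44. No member peak thus lay in a stretch with a background of more than 2.86 times that of its library.

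At the margins of the rule, the outermost peak inside a window was that of DHX8 in KYSE-30 library 4, 43.9 kb from ETV4 with a fold enrichment of 4.36, and the closest outside was in KYSE-30 library 6, 52.4 kb from ELF3 with 4.97. Among promoter peaks, the one farthest from a start site was that of ETV5 at 1214 bp with a fold enrichment of 7.14. The distal peak nearest to a start site of its own gene was that of ETV1 intron 5 at 4007 bp with 5.56.

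Sequence was not used to choose the genes, but the peaks searched here were. The motifs were also chosen with earlier results of these data known. The AP-1 core TGACTCA, bound by FOS and JUN proteins, and the ETS forms CCGGAAG and CAGGAAG were searched on both strands in the 201 bases around each summit. The AP-1 core is the only motif of the 3 found at more than 3 of the 37 peaks. Of the 16 distal member peaks of KYSE-30 library 6, 10 held it (62.5%), where 42.8% of all distal peaks of that library did. They were 2 peaks each at ETV1 and ETS1, 4 at ETS2, and 1 each at EHF and ELK3. In HET-1A library 2 it was in 1 of 7 distal member peaks, downstream of ELF3, against 32.2% of all distal peaks. In KYSE-30 library 4 it was in 0 of 2 against 18.6%. Over the 3 libraries together it was in 11 of 25 distal member peaks, against 36.0% of all distal peaks. The 12 promoter peaks held none, where 12.2% of all promoter peaks of the 3 libraries did. With 16 peaks the share at the members has no replicate, and the difference from the whole list was not tested.

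The middle of the AP-1 core lay between 38 bases before and 42 bases after the summit in coordinate order. Downstream of ETV1 it occurred in 2 copies, 11 and 37 bases after the summit, as the printed sequence shows. In the printed peak upstream of ETS2 it lay 4 bases from the summit. In ELK3 intron 1 the core and the form CAGGAAG occurred together, 16 and 54 bases after the summit, the only distal member peak with an ETS form, against 12.3% of all distal peaks of the 3 libraries. The EHF region held the core within 100 bases of the KYSE-30 library 6 summit, but the HET-1A library 2 summit lay further downstream and its 201 bases do not hold the core whole. At promoters, ETS forms were in 2 of 12 member peaks, against 20.4% of all promoter peaks. Both are the same DHX8 region, called in HET-1A library 2 and KYSE-30 library 4, and they share the same CAGGAAG. No peak at a member's own promoter held an ETS form. A match is a description of the letters and does not show binding.

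**Figure D5:**
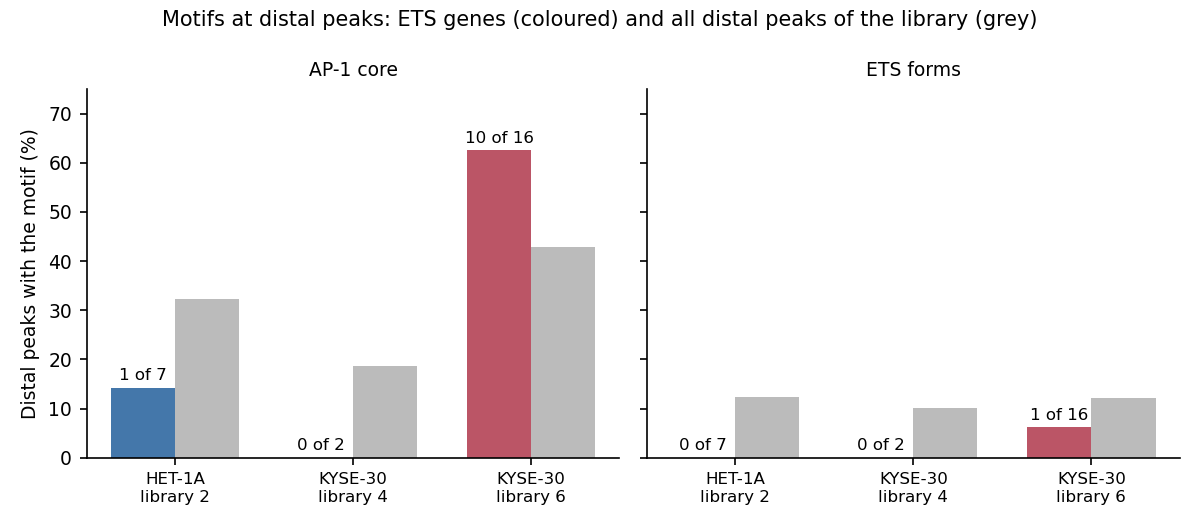
Bars give the percentage of distal peaks with a motif within 100 bases of the summit, the AP-1 core on the left and either ETS form on the right, for the ETS gene peaks (coloured, with counts) and for all distal peaks of the library (grey). The AP-1 core was in 10 of 16 ETS gene peaks of KYSE-30 library 6 and in 42.8% of all its distal peaks. In HET-1A library 2 it was in 1 of 7, against 32.2%, and in KYSE-30 library 4 in 0 of 2, against 18.6%.

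By promoter peaks over the 6 libraries, ETV1, ETS1 and ETS2 shared their pattern, KYSE-30 library 6 alone, with each other, with ETV3, ETV6 and ELF2, and in all with 1945 other genes each. The pattern of ETV4, HET-1A library 2 alone, was that of 3276 other genes, ELF1, ELK4 and ETV2 among them. ETV5 and ELF3 had both libraries, like ELK1 and 2968 genes in all beside each. For the nearest genes, the highest promoter peak of each library was taken. At ETV5 these were 7.14 at the shorter transcript in HET-1A library 2 and 8.94 at the main start site in KYSE-30 library 6. Nearest to ETV5 by the distance of log2 fold enrichment over these 2 libraries was BLM, a DNA helicase gene, with 7.07 and 8.86. VIRMA and EPRS1 followed. The match does not hold for the main start site of ETV5 alone, where HET-1A library 2 had 3.70. Nearest to ELF3 was CALB2, which encodes calretinin, with 3.75 and 3.65, followed by DAG1 and ALOXE3. EHF, ELK3, FLI1 and ERG had no promoter peak, like 10794 other genes each.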

How the data were processed

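The deposited files are 6 narrowPeak lists, 1 per ATAC-seq library. Per the labels and the study's methods, the authors trimmed reads, mapped them to hg19 with Bowtie2 2.3.3.1, handled duplicates with Picard 2.2.1, removed blacklisted regions with bedtools 2.7.1, offset the reads for the Tn5 cut and selected fragments shorter than 100 bp. They ran MACS2 2.1.0.20160309 on every library by itself, extending reads to 200 bp, with no control and no pooling of replicates. Presence of a peak was therefore decided within each library, and the lists hold no read counts. The deposited columns are a score, the fold enrichment (a ratio), and the p-value and q-value, each as −log10. The authors' fold enrichment was used to describe and rank peaks within a list, and their p- and q-values to filter them.

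The tags at a summit and the local background were computed as the whole number of tags that satisfies both the fold enrichment and the Poisson p-value, within 0.001 of −log10 p, which succeeded for 99.6 to 100% of the peaks. The same values gave the tags that a peak would have at the genome background of another library, a measure chosen after seeing the data. The recovery was tested on simulated data, with 300 peaks for each of 6 libraries, all recovered. Window and promoter assignment was tested on 200 simulated peaks and merging on 200 simulated regions. Genes, start sites and main transcripts (MANE Select) came from GENCODE 44 lifted to hg19, and no peak lay past the end of a reference chromosome. The sequences shown were read from the hg19 reference genome. PECAM1 was not analysed here. Analyses used Python 3.11.15 with pandas 2.3.3, pysam 0.24.0, numpy 2.4.6, matplotlib 3.10.9 and scipy 1.17.1.

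The members, the other ETS genes, the regulators, the marker genes and the motifs were chosen with earlier results of these data known. All members were named, with their promoter peaks and distal regions. The further genes named as alike were the 3 with the same promoter pattern and the nearest log2 fold enrichment, for members with a promoter peak in at least 2 libraries. The nearest genes of single peaks, and the EHF and ETV1 sequence details, were chosen after seeing their values. Lines were not compared by a test. Alternatives were flanks of 10 and 100 kb, a promoter of 1 kb, start sites of protein-coding transcripts only, the nearest start site, an overlap of 50% of each peak, a peak in either KYSE-30 library, each library left out, the same number of peaks from each library, and stricter q-values (0.01 and 0.001). The counts of regions in 1 line only were added after seeing the data.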

Additional observations from a re-analysis of the deposited data

How the results depend on the processing

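Values moved by more than 1.5 times only where given here. With the same 168 peaks of smallest p-value from each library, 0 members kept a promoter peak in HET-1A library 2 and likewise 0 in KYSE-30 library 6. The window peaks were then 1 for HET-1A library 2, downstream of EHF, 0 for KYSE-30 library 4 and 1 for library 6, in ETV1 intron 9, with 0 regions in both KYSE-30 libraries, 0 of these in no other library, 1 region in KYSE-30 only and 1 in HET-1A only. At a q-value under 0.001, ELK3 intron 1 was lost in KYSE-30 library 4, so 1 region remained in both KYSE-30 libraries and 1 of these in no other library. With a flank of 10 kb, HET-1A library 2 had 7 peaks. With a flank of 100 kb it had 20 peaks and KYSE-150 library 7 had 1. With the nearest start site, HET-1A library 2 had 5 peaks and KYSE-30 library 4 had 1. There was then 1 region in both KYSE-30 libraries and 1 of these in no other library. The region lost was ELK3 intron 1 at 25.5 kb. A peak in either KYSE-30 library gave 23 regions, 17 of them in no other line. With each library left out in turn, the regions of both KYSE-30 libraries numbered 2 to 22 and those in no other library 2 to 17, with the high values without library 4. Regions of KYSE-30 only numbered 2 to 23 and of HET-1A only 0 to 11. A promoter of 1 kb, protein-coding start sites, a q-value under 0.01 and an overlap of 50% moved no count by more than 1.5 times. HET-1A library 1 and KYSE-150 list few peaks at genes of any kind. No paired analysis was possible because the lines share no library numbers and no test was run.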

Other observations

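Among the 18 other ETS genes, promoter peaks were at ETV2, ELF1, ELK1, ELK4 and GABPA in HET-1A library 2, at GABPA alone in KYSE-30 library 4, and in library 6 at ETV3, ETV6, ELF2, ELK1 and GABPA. GABPA, the ubiquitous ETS factor of the nuclear respiratory factor complex, was the only one of the 28 ETS genes with a promoter peak in 3 libraries. Its fold enrichment was 5.06 for HET-1A library 2, 3.98 for KYSE-30 library 4 and 10.6 for library 6, where it was at percentile 98.7. ELF4 was the only ETS gene with no window peak in any library.

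Genes that control ETS proteins formed a further list. CIC, the repressor of PEA3 genes, and its partners ATXN1 and ATXN1L, the ubiquitin ligase genes COP1 and DET1, and SRF, the partner of ternary complex factors, all had a promoter peak in HET-1A library 2, 6 of 6 where 35.4% of all genes had one. In KYSE-30 library 6, 4 of the 6 had one (ATXN1, ATXN1L, DET1 and SRF), where 28.7% of all genes did, and in KYSE-30 library 4, CIC and DET1, where 3.88% did. DET1 was called in all 3 libraries, with fold enrichments of 4.86 for HET-1A library 2, 5.07 for KYSE-30 library 4 and 6.94 for library 6. The CIC promoter had 4.32 in HET-1A library 2 and 4.46 in KYSE-30 library 4, and no listed peak in KYSE-30 library 6. This list was not tested.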
